A study of Mus musculus with 10 samples.

Results

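The mouse genome holds 39 Hox genes, and all 39 had a row among the 46095 gene rows of the RNA-seq table. They were taken as every row named Hoxa, Hoxb, Hoxc or Hoxd followed by a paralogue number, and they fall into HoxA (11 genes), HoxB (10), HoxC (9) and HoxD (9). The rule used gene names only. Open-chromatin peaks were taken from the same 4 clusters, each reaching 5 kb beyond its outermost Hox genes, and gave 12 merged peak regions of 29289 in the whole genome.

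RNA-seq was measured in C3H10 T1/2 cells, a line from mouse embryo that behaves as a mesenchymal progenitor. In 3 cyclic strain libraries the cells were stretched in a 0.5 Hz sine wave to 10% elongation, for 8 h per day over 3 days, and the 3 static control libraries came from cells without strain. All RNA-seq cells had first grown for 48 h on collagen I on flexible plates, and their label gives the strain as C57BL/6, although the line is named for C3H mice. ATAC-seq, which cuts open chromatin with the Tn5 transposase, was done on 50000 cells of the same line in other cultures, with 2 libraries of Piezo1 knockout cells, made with CRISPR/Cas9, and 2 of GFP control cells. Piezo1 is a channel that opens when the membrane is stretched. The labels do not say whether the knockout cells were 1 clone or a pool, or whether replicates came from separate cultures, so the p-values below reflect library-to-library spread that may be technical. No library combined strain with the knockout.

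Hox genes encode homeodomain transcription factors that tell cells where they lie along the body axis and, in limbs, from shoulder to fingertip. Within a cluster they lie in the order of their paralogue numbers: low numbers are used earlier and nearer the head, high numbers later and nearer the tail or the end of the limb. Cultured fibroblasts often keep the set of Hox genes of the body site they came from. Polycomb complexes keep unused Hox genes silent, Trithorax complexes keep used ones active, TALE homeodomain proteins such as PBX and MEIS bind DNA together with HOX proteins, and retinoic acid switches on Hox genes in the embryo.

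Of the listed Hox promoters, only those of Hoxa5 and Hoxa3 carried an ATAC-seq peak. The promoters of the 3 Hox genes that changed under strain, shown here, had none in any library. Each runs from 250 bases before to 50 bases after the gene start on the + strand of chromosome 2, from RefSeq on GRCm38.p6, whose chromosomes are those of mm10, and capitals mark CG dinucleotides. Hoxd4 lies at chr2:74721728-74722027, Hoxd3 at chr2:74711743-74712042 and Hoxd8 at chr2:74704365-74704664.
Hoxd4: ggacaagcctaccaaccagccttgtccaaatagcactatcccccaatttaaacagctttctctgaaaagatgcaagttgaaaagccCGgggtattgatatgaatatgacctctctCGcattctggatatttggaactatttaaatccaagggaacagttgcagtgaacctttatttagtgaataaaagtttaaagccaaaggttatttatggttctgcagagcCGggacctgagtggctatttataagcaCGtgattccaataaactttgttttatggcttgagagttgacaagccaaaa
Hoxd3: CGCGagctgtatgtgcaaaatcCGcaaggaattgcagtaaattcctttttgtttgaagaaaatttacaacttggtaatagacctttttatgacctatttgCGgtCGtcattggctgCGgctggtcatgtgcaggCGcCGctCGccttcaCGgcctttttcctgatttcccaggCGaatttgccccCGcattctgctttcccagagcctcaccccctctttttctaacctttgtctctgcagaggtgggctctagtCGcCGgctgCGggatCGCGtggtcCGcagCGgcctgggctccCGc
Hoxd8: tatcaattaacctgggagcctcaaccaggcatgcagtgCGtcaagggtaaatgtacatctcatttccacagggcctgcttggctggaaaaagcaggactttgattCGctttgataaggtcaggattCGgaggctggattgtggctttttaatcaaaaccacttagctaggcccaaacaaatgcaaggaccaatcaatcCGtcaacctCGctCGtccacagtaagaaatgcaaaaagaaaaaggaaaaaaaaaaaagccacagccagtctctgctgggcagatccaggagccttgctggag
The Hoxd4 window holds 4 CG dinucleotides, the Hoxd8 window 6 and the Hoxd3 window 20. The median was 14.5 over the 24 windows of the 22 Hox genes that the promoter table lists, with a range of 4 to 45, and 7 over all 32851 windows. GC content was 39.7% for Hoxd4, 46.7% for Hoxd8 and 54.0% for Hoxd3. Searched on both strands, TATAAA was found in the Hoxd4 window, on the strand opposite to the gene, and in 13.6% of all windows. The joint HOX and PBX motif TGATTNAT (3.22% of all windows) and the homeodomain motif TAATTA (5.29%), which differ in their letters but can overlap, were in none of these 3 windows. A match or its lack is a description of these letters only.

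The promoters of Hoxa5 and Hoxa3 are shown because they were the windows of the promoter table that carried an ATAC-seq peak. Both are on the - strand of chromosome 6, at chr6:52204538-52204837 for Hoxa5 and chr6:52213018-52213317 for Hoxa3, and capitals mark the bases under a peak.
Hoxa5: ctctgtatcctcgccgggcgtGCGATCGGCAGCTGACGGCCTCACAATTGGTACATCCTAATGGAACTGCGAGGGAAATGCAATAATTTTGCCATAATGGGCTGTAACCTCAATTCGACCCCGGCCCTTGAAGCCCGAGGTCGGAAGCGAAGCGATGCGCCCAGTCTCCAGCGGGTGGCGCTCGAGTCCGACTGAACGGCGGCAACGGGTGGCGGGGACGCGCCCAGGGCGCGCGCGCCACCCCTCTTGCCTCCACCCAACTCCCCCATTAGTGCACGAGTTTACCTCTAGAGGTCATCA
Hoxa3: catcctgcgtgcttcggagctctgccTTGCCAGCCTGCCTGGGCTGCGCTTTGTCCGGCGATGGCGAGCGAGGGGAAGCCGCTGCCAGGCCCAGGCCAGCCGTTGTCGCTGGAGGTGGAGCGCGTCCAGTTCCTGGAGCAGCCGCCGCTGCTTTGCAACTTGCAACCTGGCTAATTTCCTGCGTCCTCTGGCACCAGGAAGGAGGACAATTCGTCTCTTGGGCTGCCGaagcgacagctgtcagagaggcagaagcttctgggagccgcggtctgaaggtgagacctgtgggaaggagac
In Hoxa5, 279 of the 300 bases lay under a peak of Piezo1 knockout library 2 or GFP control library 2, and the window holds 29 CG dinucleotides. In Hoxa3, 202 bases lay under a peak of Piezo1 knockout library 1, and the window holds 20.

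The Hox genes took a small part of the RNA. The 3 cyclic strain libraries held 40023544, 37233101 and 41024689 counts, of which 12126, 9576 and 10266 fell on Hox genes. The 3 static control libraries held 38491897, 36150738 and 36305998 counts, of which 11057, 10113 and 10652 fell on Hox genes. Levels are given below as CPM (counts on a gene relative to the TMM-scaled library total), and a count of 3, taken as the limit that a count of 0 allows, equals 0.0721 to 0.0802 CPM in strain libraries and 0.0784 to 0.0853 CPM in static libraries. That limit covers counting error only, since reads of amplified cDNA, for which no molecular identifiers are described, need not be independent molecules.

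The cells expressed HoxC and HoxA genes most, HoxD genes less and HoxB genes hardly at all. HoxC genes gave 53.0%, 56.3% and 58.7% of the Hox counts in the 3 strain libraries, and 48.1%, 48.8% and 47.9% in the static libraries. HoxA genes gave 36.1%, 33.5% and 30.5% in strain libraries and 37.4%, 37.1% and 37.5% in static libraries. HoxD genes gave 9.71%, 9.12% and 9.84% in strain libraries and 13.2%, 12.6% and 13.7% in static libraries. HoxB genes gave 1.19%, 1.03% and 1.00% in strain libraries and 1.34%, 1.42% and 0.967% in static libraries. The HoxC share was thus higher, and the HoxA and HoxD shares lower, in every strain library than in every static library, while the HoxB shares overlapped. The shares of 1 library add up to the whole, so they cannot move apart from each other.

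Of the 39 genes, 25 had enough counts for the test: 10 of HoxA (up to paralogue 11), 3 of HoxB (4, 8 and 9), 8 of HoxC (4 to 6, 8 to 11 and 13) and 4 of HoxD (3, 4, 8 and 9). The other 14 stayed at 15 counts or fewer in every library. Among these, Hoxb1, Hoxd1 and Hoxd12 had no count in any of the 6 libraries. Summed over the 3 libraries of each group, the largest of them were Hoxb3, with 18 counts in strain and 30 in static libraries, and Hoxd10, with 15 and 32. Hoxb6 had 14 counts in strain and 9 in static libraries, Hoxb5 12 and 4, Hoxa13 8 and 3, Hoxb7 5 and 2, Hoxb2 3 and 6, Hoxb13 3 and 8, Hoxc12 2 and 3, Hoxd11 0 and 2, and Hoxd13 0 and 1. The posterior end therefore differed between clusters: Hoxc13 was well measured, whereas its paralogues Hoxa13, Hoxb13 and Hoxd13 had no more than 8 counts summed over either group. In HoxD no gene beyond paralogue 9 passed the filter on low counts, while in HoxA Hoxa10 and Hoxa11 did, and in HoxC Hoxc10, Hoxc11 and Hoxc13.

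To set levels of different genes side by side, CPM was divided by the length of the gene span in kb, introns included, since transcript lengths were not used here; genes with long introns are therefore understated. On this scale Hoxc10, a gene of the hindlimb and the lower spine, was the most abundant, with 10.1 CPM per kb in strain and 10.9 in static libraries. Hoxa9, the highest of HoxA, had 5.30 CPM per kb in strain and 6.81 in static libraries. Hoxd9, the highest of HoxD, had 4.92 and 6.21 CPM per kb in strain and static libraries. Hoxb9, the highest of HoxB, had 0.308 CPM per kb in strain and 0.388 in static libraries. The highest gene of every cluster on this scale was thus a paralogue 9 or 10.

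**Figure D1:**
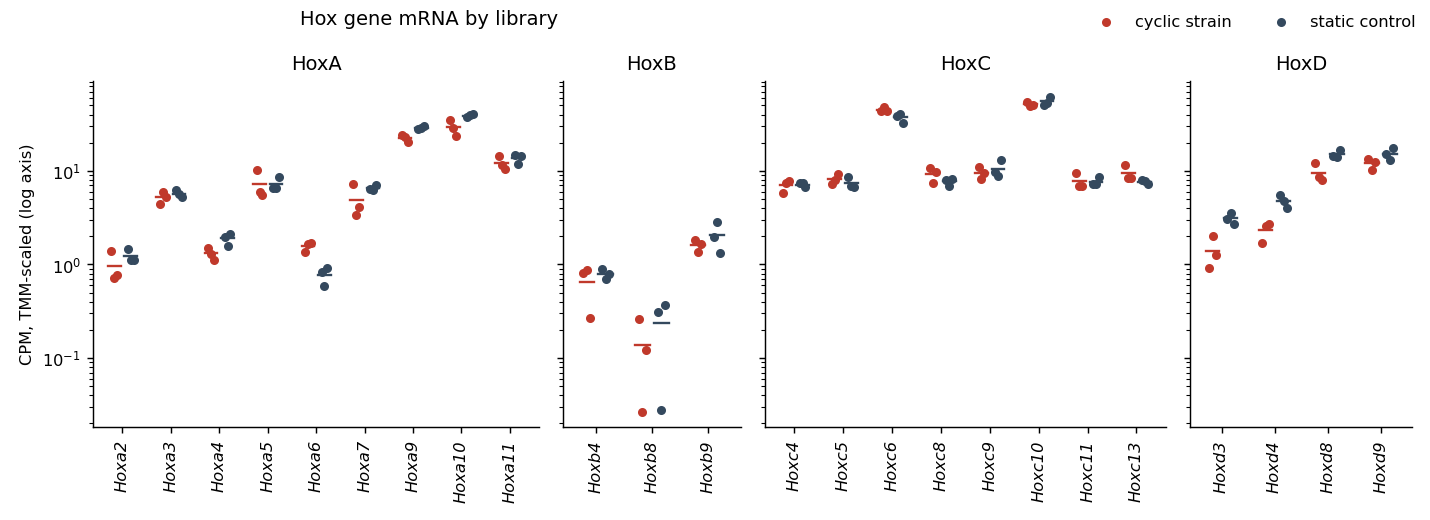
CPM (log axis) of tested Hox genes, with 1 point per library, cyclic strain in red to the left of static control in blue, and a line at each group's mean. Hoxd3, Hoxd4, Hoxd8, Hoxa4, Hoxa9 and Hoxa10 have all 3 strain points below all 3 static points, while Hoxc6, Hoxc13 and Hoxa6 show the opposite.

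Under cyclic strain 3 Hox genes fell, all of them in HoxD, and none rose. The test was edgeR's quasi-likelihood test on all 15335 genes with enough counts, with Benjamini-Hochberg adjustment over all of them and a threshold of 0.05. The 3 genes that fell are 12% of the 25 tested, where 7.39% of all tested genes fell; 0 of 25 rose, where 5.94% of all tested genes rose. In either direction 13.3% of all genes passed, so the share of Hox genes that changed was close to the background. At an unadjusted p under 0.05 there were 2 higher and 5 lower Hox genes, and DESeq2 called 1 higher and 5 lower. The log2 fold change, strain over static, was below 0 for 18 of the 25 genes and above 0 for 7, with a median of -0.18 beside 0.0049 over all tested genes. Library by library, 3 Hox genes had all strain values above all static values, which 17.4% of all tested genes had, and 6 had them all below, which 17.9% had. In bulk RNA, fewer cells that express a gene and less RNA per cell cannot be told apart.

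Hoxd4, which helps set the identity of the neck region of the spine and the hindbrain, was the Hox gene with the smallest adjusted p. It had 1.68, 2.57 and 2.74 CPM in strain libraries, against 5.49, 4.72 and 4.01 CPM in static libraries. The highest strain value was below the lowest static value. The log2 fold change was -1.03 (SE 0.24, edgeR quasi-likelihood adjusted p = 0.0184). Leaving out static library 1 ended the call, with a log2 fold change of -0.91 and an adjusted p of 0.0848 by the same edgeR test.

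Hoxd3, another anterior gene, which acts with its HoxA paralogue in the vertebrae of the neck, had 0.913, 2.00 and 1.26 CPM in strain libraries, against 3.03, 3.54 and 2.73 CPM in static libraries. Strain library 1 was the lowest, and the groups did not overlap. The log2 fold change was -1.16 (SE 0.30, edgeR quasi-likelihood adjusted p = 0.0315). The same edgeR test no longer passed without strain library 1 (log2 fold change -0.93, adjusted p 0.0655), strain library 3 (-1.10, 0.102), static library 1 (-1.18, 0.0843) or static library 2 (-1.05, 0.0605). The gene spans of Hoxd3 (chr2:74711993-74748271) and Hoxd4 (chr2:74721978-74729160) overlap on the same strand, so how reads were shared between them is uncertain, and they need not be separate observations. The span of Mir10b overlaps both.

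Hoxd8, from the middle of the cluster and active in the trunk, had 12.0, 8.55 and 7.90 CPM in strain libraries, against 14.5, 14.0 and 16.8 CPM in static libraries. Strain library 1 came nearest to the static group without reaching it. The log2 fold change was -0.67 (SE 0.17, edgeR quasi-likelihood adjusted p = 0.0295). The call was lost in the same edgeR test without strain library 2 (log2 fold change -0.61, adjusted p 0.0972), strain library 3 (-0.56, 0.107), static library 1 (-0.70, 0.0740) or static library 3 (-0.59, 0.0726). The span of Hoxd8 (chr2:74704615-74707933) overlaps that of Gm38462.

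Hoxd9, which acts with Hoxa9 and the other group 9 genes in the upper limb and lumbar spine, had 13.5, 10.2 and 12.4 CPM in strain libraries, against 15.0, 13.2 and 17.4 CPM in static libraries. Strain library 1 was above static library 2, so the groups overlapped, and the log2 fold change of -0.34 (SE 0.15) did not pass (edgeR adjusted p = 0.172). Summed over the cluster, HoxD had 28.3, 23.3 and 24.5 CPM in strain libraries, against 38.1, 35.9 and 41.4 CPM in static libraries, a mean of 25.4 ± 2.60 CPM and 38.5 ± 2.75 CPM (SD, n = 3 each). All 4 tested HoxD genes had a log2 fold change below 0, with a median of -0.85.

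The count of Hox genes that fell depended on single libraries. It was 0 without static library 1, 1 without strain library 3, 2 without strain library 2, static library 2 or static library 3, and 4 without strain library 1. With strain library 1 and static library 3, the libraries farthest from the rest of their group, both left out, 6 fell and 1 was higher; that setting was chosen after the data had been seen.

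**Figure D2:**
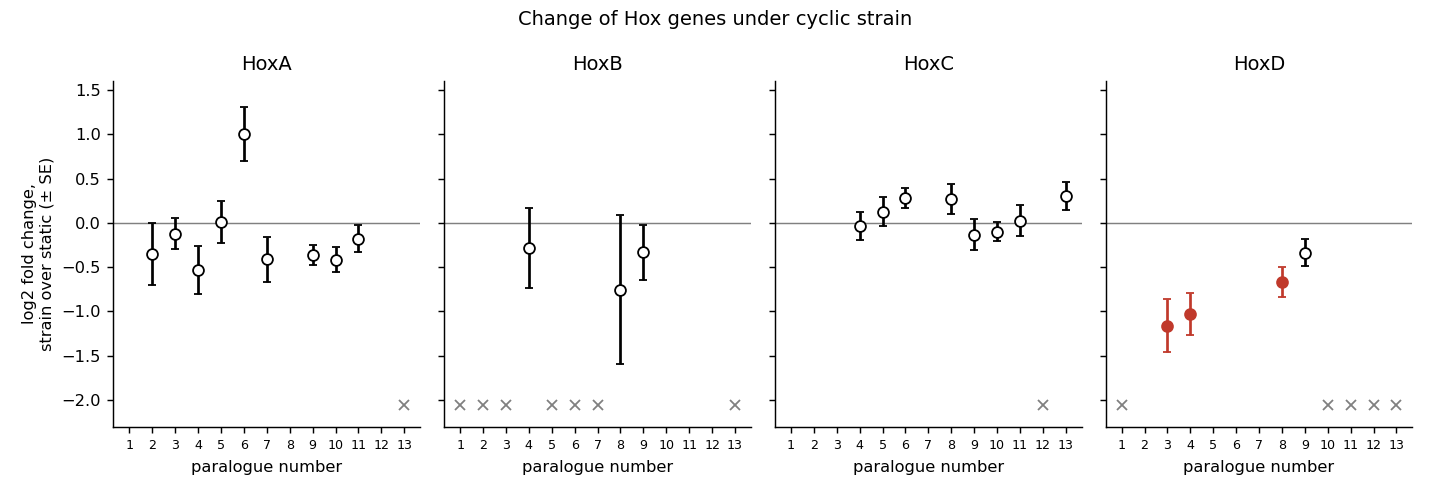
Log2 fold change of Hox genes, strain over static, by paralogue number and cluster, with bars of 1 SE. Filled red points passed the test, open points did not, and grey crosses mark the genes with too few counts; the 3 filled points are Hoxd3, Hoxd4 and Hoxd8.

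In HoxA no gene passed the test, and 8 of its 10 tested genes had a log2 fold change below 0, with a median of -0.26. Hoxa9 and Hoxa10, abundant posterior genes, came nearest among the lower ones. Hoxa9 had 24.4, 23.2 and 20.4 CPM in strain libraries, against 28.2, 29.0 and 30.0 CPM in static libraries, a log2 fold change of -0.36 (SE 0.11, edgeR adjusted p = 0.0576). Hoxa10, needed for the lumbar spine, the upper leg and the uterus, had 35.1, 29.05 and 23.5 CPM in strain libraries, against 37.3, 39.3 and 40.2 CPM in static libraries, a log2 fold change of -0.41 (SE 0.14, edgeR adjusted p = 0.0784). Neither gene's groups overlapped. DESeq2 called both, with an adjusted p of 0.0257 for Hoxa9 and 0.0436 for Hoxa10.

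Hoxa6, from the middle of the cluster, was the exception in HoxA. It had 1.34, 1.66 and 1.70 CPM in strain libraries, against 0.836, 0.590 and 0.910 CPM in static libraries. Every strain value was above every static value, and the log2 fold change was 1.00 (SE 0.31, edgeR adjusted p = 0.0548). DESeq2 called it (adjusted p = 0.0284), and so did edgeR with scaling by library size alone (0.0447) and without the filter on low counts (0.0492). Its span lies inside that of Hoxa3 and overlaps the antisense gene Hoxaas3, so its reads cannot be assigned with certainty.

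Strain library 1 differed from the other strain libraries in several HoxA genes. Hoxa5, a gene of the lung and the neck and chest vertebrae, had 10.3, 5.93 and 5.53 CPM in strain libraries, against 6.53, 6.49 and 8.59 CPM in static libraries. Hoxa7, a trunk gene, had 7.18, 3.39 and 4.14 CPM in strain libraries, against 6.38, 6.18 and 7.05 CPM in static libraries. In both genes strain library 1 was the highest of all 6 libraries. Hoxa7's log2 fold change was -0.41 (SE 0.25, edgeR adjusted p = 0.304) with all libraries and -0.79 (edgeR adjusted p = 0.0251) without strain library 1. Without that library Hoxa10 also passed, with a log2 fold change of -0.57 (edgeR adjusted p = 0.0235).

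Further HoxA genes stayed within or near the spread between libraries. Hoxa4 had 1.51, 1.31 and 1.11 CPM in strain libraries, against 1.99, 1.57 and 2.13 CPM in static libraries, without overlap and with a log2 fold change of -0.53 (SE 0.27, edgeR adjusted p = 0.213). Hoxa2, which gives the second branchial arch its identity, averaged 0.963 ± 0.373 CPM in strain and 1.23 ± 0.200 CPM in static libraries (SD, n = 3 each). Hoxa3, a gene of the thymus and the throat arches, averaged 5.26 ± 0.774 and 5.73 ± 0.493 CPM in strain and static libraries. Hoxa11, which patterns the forearm and lower leg, averaged 12.1 ± 2.00 CPM in strain and 13.7 ± 1.57 CPM in static libraries. The groups of Hoxa2, Hoxa3 and Hoxa11 overlapped. The span of Hoxa3 holds those of Hoxa4, Hoxa5 and Hoxa6, so its count is uncertain too.

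In HoxC 5 of the 8 tested genes had a log2 fold change above 0 and 3 below, with a median of 0.075, and none passed. Hoxc6, a gene of the chest region, had 43.4, 48.7 and 43.5 CPM in strain libraries, against 38.8, 40.5 and 32.5 CPM in static libraries. The groups did not overlap, and the log2 fold change was 0.28 (SE 0.12, edgeR adjusted p = 0.134). Hoxc13, known for its part in hair and nails, had 11.6, 8.36 and 8.43 CPM in strain libraries, against 7.97, 7.81 and 7.20 CPM in static libraries. All strain values were above the static ones, with a log2 fold change of 0.30 (SE 0.16, edgeR adjusted p = 0.238). Hoxc10, the most abundant Hox gene, averaged 51.7 ± 3.00 CPM in strain and 55.4 ± 5.75 CPM in static libraries (SD, n = 3 each), and its groups overlapped. The other 5 (Hoxc4, Hoxc5, Hoxc8, Hoxc9 and Hoxc11) overlapped as well, with log2 fold changes between -0.14 for Hoxc9 and 0.27 for Hoxc8. Summed over the cluster, HoxC had 148 ± 5.44 CPM in strain and 141 ± 3.59 CPM in static libraries, beside 88.9 ± 14.9 and 109 ± 4.24 CPM for HoxA.

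In HoxB the levels were too low for a firm statement. Hoxb9, a chest-region gene, had 1.83, 1.36 and 1.67 CPM in strain libraries, against 1.96, 2.84 and 1.34 CPM in static libraries. Hoxb4, used in blood stem cells and the neck, had 0.817, 0.882 and 0.267 CPM in strain libraries, against 0.888, 0.702 and 0.797 CPM in static libraries. Both overlapped between groups. Hoxb8 ran from 0.0267 to 0.264 CPM in strain and from 0.0281 to 0.370 CPM in static libraries. The lowest library of each group had 1 count, and the gene's log2 fold change of -0.75 had an SE of 0.84. The cluster as a whole had 2.87 ± 0.518 CPM in strain and 3.61 ± 0.599 CPM in static libraries.

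Set side by side, paralogues of 1 group had different values. In group 4 Hoxd4 fell, while the log2 fold changes of Hoxa4, Hoxb4 and Hoxc4 were -0.53, -0.28 and -0.03 (SE 0.27, 0.45 and 0.16), none past the threshold. In group 8 Hoxd8 fell, while Hoxb8 and Hoxc8 had log2 fold changes of -0.75 (SE 0.84) and 0.27 (SE 0.17), neither past the threshold. In group 9 all 4 log2 fold changes were below 0, from -0.36 for Hoxa9 to -0.14 for Hoxc9, and none passed. Differences between paralogues were not tested.

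Of the transcripts around the clusters, 24 noncoding RNAs and flanking genes were listed, 20 had a row and 10 were tested: 1 fell and none rose, beside 7.39% of all tested genes that fell and 5.94% that rose, and the median log2 fold change was -0.018. That count is near the background. The one that fell was Hoxa11os, an antisense transcript at Hoxa11, with 7.90, 6.90 and 7.34 CPM in strain libraries, against 11.5, 9.38 and 13.6 CPM in static libraries. The log2 fold change was -0.64 (SE 0.16, edgeR adjusted p = 0.0274), and the call was lost without strain library 2 (0.0920), strain library 3 (0.0872), static library 1 (0.0885) or static library 3 (0.0690). Hoxa11 on the other strand had a log2 fold change of -0.18 (SE 0.15). No strand setting is given in the sources used here, so reads of the pair cannot be told apart. Hotair, from the HoxC cluster, had 1.39, 0.935 and 0.703 CPM in strain libraries, against 1.36, 1.07 and 0.256 CPM in static libraries, and overlapped. Hottip, from the posterior end of HoxA, and the even-skipped homologues Evx1 and Evx2 beside HoxA and HoxD had no count in any library. The flanking genes Skap2 and Hibadh of HoxA and Mtx2 of HoxD had log2 fold changes of 0.11, 0.03 and -0.07, none past the threshold.

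In a list of TALE homeodomain genes, which holds Tgif1 and Tgif2 beside the HOX partners, 3 of 10 tested genes fell and none rose. Of all tested genes 7.39% fell and 5.94% rose, and the list's median log2 fold change was -0.23. Tgif2, a TALE repressor not counted here as a HOX partner, had 8.00, 7.27 and 7.12 CPM in strain libraries, against 13.9, 13.8 and 13.8 CPM in static libraries. Tgif2 had a log2 fold change of -0.89 (SE 0.13, edgeR adjusted p = 0.00147). It kept passing in all alternatives run. Pknox2 (log2 fold change -0.39, SE 0.12) and Meis2 (-0.36, SE 0.11), which bind DNA beside HOX and PBX proteins, passed just under the threshold, with edgeR adjusted p of 0.04996 and 0.04997. Scaling by library size alone ended both calls (adjusted p = 0.0856 and 0.0937), limma-voom that of Pknox2 (0.0532), and edgeR without the low-count filter that of Meis2 (0.0633). So did leaving out single libraries: for Pknox2 any but static library 3, with adjusted p from 0.0744 without strain library 1 to 0.187 without static library 1, and for Meis2 any but strain library 1, from 0.0607 without static library 3 to 0.181 without static library 1.

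The chromatin regulators of Hox clusters were counted against the same shares of all tested genes, 7.39% lower and 5.94% higher. Of 30 Polycomb genes 2 fell, none rose, and the median log2 fold change was -0.007, a count near that background. Jarid2, a cofactor of the complex that methylates histone H3 at lysine 27, had 8.79, 11.1 and 8.65 CPM in strain libraries, against 17.9, 16.6 and 14.3 CPM in static libraries, a log2 fold change of -0.77 (SE 0.15, edgeR adjusted p = 0.00714). Pcgf5, a subunit of a Polycomb ubiquitin ligase, had a log2 fold change of -0.49 (SE 0.11, edgeR adjusted p = 0.0158). Of 15 Trithorax genes and demethylases 2 fell and none rose, with a median of 0.14: Kdm6b, which removes the Polycomb mark, at -0.42 (SE 0.11, edgeR adjusted p = 0.0329), and Mllt3, an elongation factor subunit, at -0.35 (SE 0.10, edgeR adjusted p = 0.0495). Leaving out single libraries ended 3 of these calls. Pcgf5 was lost without strain library 2 (edgeR adjusted p = 0.0658), strain library 3 (0.0794) or static library 1 (0.0807). Kdm6b was lost without any library but static library 3, with adjusted p from 0.0736 without strain library 1 to 0.137 without static library 1, and Mllt3 without any but strain library 1, from 0.0670 without static library 3 to 0.176 without strain library 2. Scaling by library size alone also ended the calls of Kdm6b (0.0544) and Mllt3 (0.0916), and edgeR without the low-count filter that of Mllt3 (0.0661). None of the 10 CTCF and cohesin genes, which shape the loops of Hox loci, passed, and their median log2 fold change was 0.13. Of 11 caudal and Hox-related homeobox genes 8 had no count in any library, among them Cdx2 and Cdx4, activators of posterior Hox genes in the embryo, and the 2 tested ones, Cdx1 and Meox1, did not pass.

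Of the genes that make, carry, read or remove retinoic acid, 8 of 17 tested members fell, none rose, and their median log2 fold change was -0.56, where 7.39% of all tested genes fell and the overall median was 0.0049. Stra6, the receptor that takes up retinol, had 0.120, 0.294 and 0.218 CPM in strain libraries, against 0.941, 1.21 and 0.796 CPM in static libraries. Aldh1a1, which makes retinoic acid from retinaldehyde, had 3.70, 4.94 and 3.66 CPM in strain libraries, against 8.83, 8.74 and 8.93 CPM in static libraries. These genes of uptake and synthesis both stood lower in every strain library than in any static one, with log2 fold changes of -2.21 (SE 0.44, edgeR adjusted p = 0.00882) and -1.11 (SE 0.17, 0.00212). Dhrs3, which turns retinaldehyde back into retinol and so limits retinoic acid, had 6.85, 7.08 and 5.99 CPM in strain libraries, against 13.4, 13.3 and 16.4 CPM in static libraries, a log2 fold change of -1.11 (SE 0.14, edgeR adjusted p = 0.000954). Cyp26b1, which breaks retinoic acid down, fell as well (-1.27, SE 0.24, edgeR adjusted p = 0.00642). Aldh1a2, Aldh1a3 and Rdh10, which also act in retinoic acid synthesis, had log2 fold changes of -0.76, -0.09 and 0.15 (SE 0.28, 0.45 and 0.15) and did not pass.

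Of the receptors, Rara fell to 116, 108 and 117 CPM in strain libraries, against 165, 161 and 179 CPM in static libraries, a log2 fold change of -0.56 (SE 0.09, edgeR adjusted p = 0.00372). Rarb, itself a retinoic acid target, fell too (-1.18, SE 0.33, edgeR adjusted p = 0.0394), as did Crabp1, which binds retinoic acid in the cytoplasm (-0.83, SE 0.23, edgeR adjusted p = 0.0391). Rarg and Rxra, the other abundant receptors, had log2 fold changes of -0.19 and 0.15 (SE 0.09 each) and did not pass. Cyp26a1 and Cyp26c1, the sister enzymes of Cyp26b1, had log2 fold changes of 0.73 (SE 0.36) and 1.15 (SE 0.35), and neither passed (edgeR adjusted p = 0.210 and 0.0559). Dhrs3, Aldh1a1 and Rara stayed past the threshold in all alternatives run. Whether the calls of Stra6, Cyp26b1, Rarb and Crabp1 depend on single libraries is not given here, and Stra6 had only 5, 11 and 9 counts in strain libraries.

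**Figure D3:**
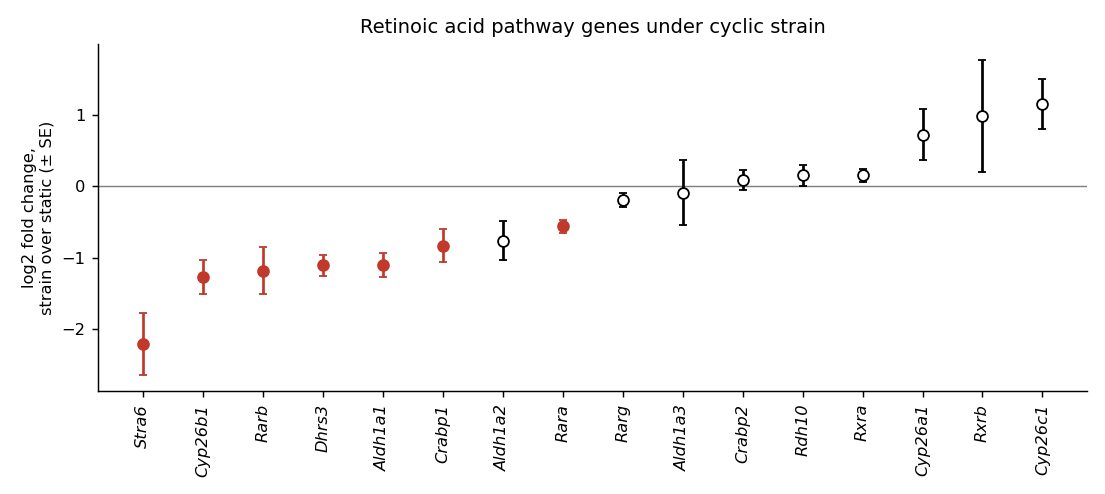
Log2 fold change, strain over static, of tested retinoic acid pathway genes, ordered by value, with bars of 1 SE. Filled red points, among them Stra6, Cyp26b1, Dhrs3, Aldh1a1 and Rara, passed the test, and open points did not.

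Among 44 other transcription factors that pattern limbs, body axis and face, 30 were tested. Of these 2 rose, where 5.94% of all tested genes did, and 7 fell, where 7.39% did, with a median log2 fold change of -0.14. Tbx18 and Tbx3, T-box factors of the limb and trunk, rose: Tbx18 had 61.8, 56.0 and 54.2 CPM in strain libraries, against 34.4, 34.2 and 31.7 CPM in static libraries (log2 fold change 0.78, SE 0.10, edgeR adjusted p = 0.00103). Tbx3 had 23.2, 23.3 and 20.4 CPM in strain libraries, against 12.7, 12.0 and 11.9 CPM in static libraries (0.87, SE 0.12, edgeR adjusted p = 0.00118). Dlx6, a homeodomain factor of jaw and limb bone, had 2.88, 2.35 and 2.84 CPM in strain libraries, against 5.91, 7.16 and 8.62 CPM in static libraries (-1.42, SE 0.20, edgeR adjusted p = 0.00136). The groups of these 3 genes did not overlap. Others that fell were Dlx5, Twist1 and Shox2 (edgeR adjusted p = 0.00565, 0.00662 and 0.0171). Tbx15 and Foxc2 also fell but passed closer to the threshold (edgeR adjusted p = 0.0425 and 0.04997). Whether these calls depend on single libraries is not given here.

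Marker genes were read beside these results, and their part in them was not tested. Of 9 tested mesenchymal markers 5 fell and none rose, beside 7.39% of all tested genes that fell and 5.94% that rose. The list's summed level was 59100 to 70500 CPM in strain and 79900 to 88400 CPM in static libraries. Twist1 and Prrx1 are in this list and the patterning list. Thy1, the untested mesenchymal marker, had 1, 0 and 0 counts in strain and 0, 1 and 2 in static libraries. Some markers of other cell types had counts too. Tubb3 (neural) averaged 49.7 CPM in strain and 40.1 CPM in static libraries. Egfl7 (endothelial) averaged 5.05 and 5.63 CPM, Cd68 (haematopoietic) 3.6 and 2.5 CPM, and Krt14 (epithelial) 1.82 and 1.48 CPM. The other lists were far lower in level: 3.00 to 4.53 against 8.45 to 9.75 CPM for 8 epithelial markers (Cdh1 fell; Epcam and Cldn4 at 0), 5.08 to 6.86 against 5.67 to 7.82 for 7 endothelial markers (Cdh5 and Emcn at 0), 3.66 to 5.07 against 2.78 to 3.70 for 7 haematopoietic markers (Ptprc, Cd3e and Tyrobp at 0), 45.9 to 60.3 against 44.5 to 49.0 for 8 neural markers (Sox10 and Snap25 at 0), and 1.90 to 2.02 against 3.17 to 3.87 for 6 skeletal muscle markers (Des fell; Myod1, Myf5, Myog and Ckm at 0), strain before static in each case.

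Open-chromatin peaks lay in HoxA in all 4 ATAC-seq libraries, in HoxC in the GFP libraries alone, and in HoxB and HoxD in none. The authors called peaks in each library alone, 15980 and 13610 in the Piezo1 knockout libraries and 15978 and 26652 in the GFP control libraries. HoxA (chr6:52150367-52265880) held 5 and 3 peaks in knockout libraries 1 and 2, and 3 and 9 in GFP libraries 1 and 2. They covered 1637 and 1613 bp in knockout libraries and 1180 and 2890 bp in GFP libraries. Per 100 kb this was 4.33 and 2.60 peaks in knockout and 2.60 and 7.79 in GFP libraries, where the genome as a whole had 0.607 and 0.517 in knockout and 0.607 and 1.01 in GFP libraries. HoxC (chr15:102916131-103041856) held no peak in either knockout library, and 1 and 2 in the GFP libraries. Those were 0.795 and 1.59 per 100 kb, above the genome rates of 0.607 and 1.01 in the same libraries. HoxB (chr11:96189316-96373254) and HoxD (chr2:74663225-74770142) held none in any of the 4. These clusters span 183.9 and 106.9 kb, where the genome rates would place few peaks in any library, so no depletion is shown. GFP library 2 had the most peaks in the genome and in HoxA. Peak lists hold no counts, so the depth of each library is unknown, a missing peak does not show closed chromatin, and no test was made. Peak lists do not measure Piezo1 mRNA, so they do not check the knockout.

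Merged across libraries wherever they touched by at least 1 bp, the peaks gave 9 regions in HoxA and 3 in HoxC. Of these 12 regions, 2 were called in all 4 libraries, as were 26.4% of all merged regions. None was called in both knockout libraries and neither GFP library (1.57% of all regions), and 1 was called in both GFP libraries and neither knockout library (10.6%). In 1 library alone there were 8, of which 6 were in GFP library 2, 1 in GFP library 1 and 1 in knockout library 1.

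The regions in all 4 libraries lie within the long Hoxa3 span, between Hoxa2 and Hoxa4. The first, chr6:52172398-52173101, had the authors' fold enrichment of 6.79 and 5.24 in knockout libraries and 5.25 and 6.65 in GFP libraries; it also overlaps the span of Gm15050. The second, chr6:52183746-52184589, had 4.38 and 5.61 in knockout libraries and 5.19 and 4.76 in GFP libraries, as the highest of its peaks in each library. The GFP peaks of this region do not overlap each other and were joined through the knockout peaks. The ranges of the knockout and GFP values overlapped in both regions. Whether these regions are exonic or intronic was not determined here, since only gene spans were used. The region chr6:52204184-52204816 at the Hoxa5 start was called in both knockout libraries (highest fold enrichment 4.47 and 5.56) and in GFP library 2 (5.13). Within it, the peak of knockout library 2 and a second peak of GFP library 2 (4.52) reach into the promoter window shown above, while the peak of knockout library 1 and the higher peak of GFP library 2 end 115 and 109 bp from the start, inside the gene.

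**Figure D4:**
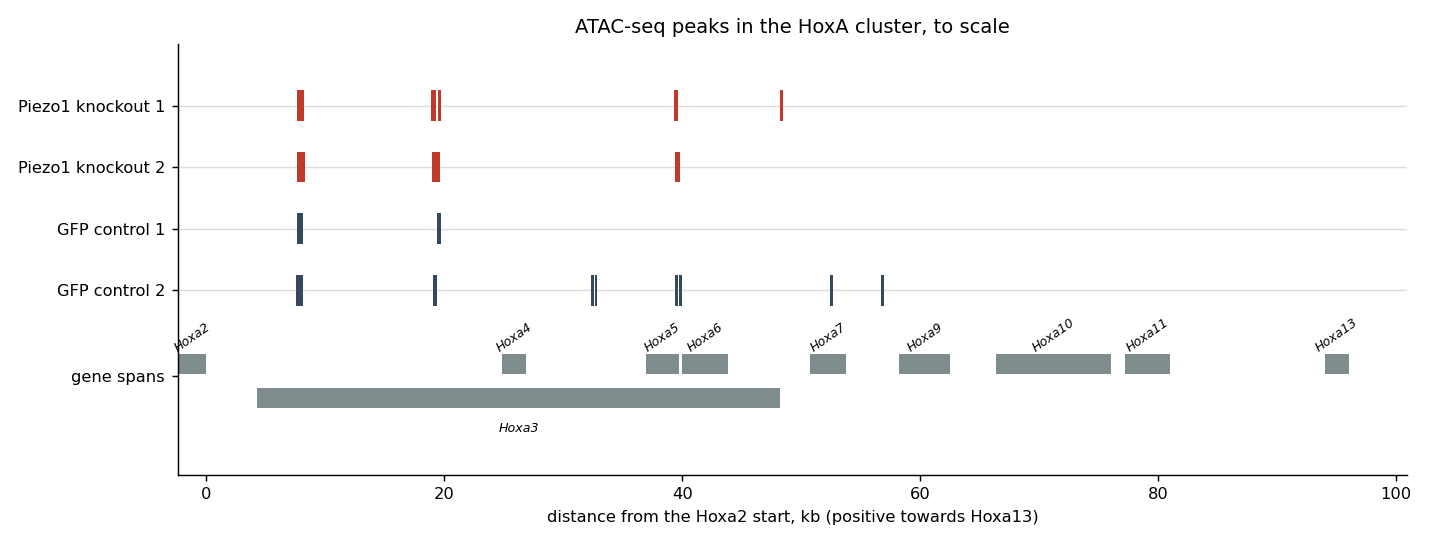
Peaks of the 4 ATAC-seq libraries in the HoxA cluster, to scale, by distance in kb from the Hoxa2 start towards Hoxa13. Piezo1 knockout libraries (red) lie above GFP control libraries (blue), with gene spans in grey. Peaks beyond the Hoxa2 span on the side away from Hoxa13 are not drawn. The merged regions with a peak in all 4 rows lie in the Hoxa3 span, and from the Hoxa9 span to Hoxa13 no library has a peak.

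Few Hox gene starts had a peak within 1000 bp. Hoxa5 and Hoxa3 were the 2 of 22 listed Hox genes that had one in at least 1 library, and 0 of 22 had one in all 4. The 22 include every HoxD gene, but of HoxC only Hoxc4 and of HoxB only Hoxb1, Hoxb4 and Hoxb8. Among all 26794 listed genes, 34.4% had a peak at a start in at least 1 library and 20.3% in all 4. Of the 15 Hox genes in the table that were also tested in RNA-seq, again 2 had a peak in at least 1 library and 0 in all 4, where 72.9% and 44.7% of 10515 such genes did. These Hox genes were not highly expressed, so the share is also given by level. Among genes at 1 to under 10 CPM in static libraries, 53.9% of 2311 had a peak in at least 1 library, as did 2 of 7 Hox genes. Among genes at 10 to under 100 CPM, 84.7% of 5577 had one, as did 0 of 5 Hox genes. Levels and peaks came from different cultures. With the span end used as the start of the Hox genes not in the table, 3 of 39 had a peak, the third being Hoxc13, 360 bp from a peak of GFP library 1. None of the 3 HoxD genes that fell under strain had one in any library, nor did the abundant Hoxc10, Hoxc6, Hoxa10 and Hoxa9.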

How the data were processed

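Per the submitters' processing notes, the tools were Trim Galore 0.6.5 for both assays, STAR and HTSeq for RNA-seq, and Bowtie2 2.4.2 and MACS2 for ATAC-seq, on mm10. Strand setting, annotation and treatment of reads shared by genes: not given in the sources used here. The authors deposited raw counts per gene. Their deposited peak lists give a fold enrichment (a ratio), a -log10 q and a score, which are the authors' own values; the score was not used.

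Counts were tested with edgeR 4.0.16 (TMM, filterByExpr, quasi-likelihood, two-sided, Benjamini-Hochberg over all genes tested); DESeq2 1.42.0 and limma 3.58.1 served as alternatives. Replicates differed beyond sampling noise (chi-square per degree of freedom 9.19 to 59.6). Peaks were merged with bedtools 2.31.1. Gene spans and promoters came from RefSeq (GRCm38.p6).

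Tested Hox genes were described, except that some genes are not reported here; of each other list, up to 4 genes with the smallest adjusted p were named by rule, and the further ones were chosen after their values were seen. Members and lists were chosen with earlier results of these data known.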

Additional observations from a re-analysis of the deposited data

How the results depend on the processing

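Hox genes higher and lower under strain numbered 0 and 3 by edgeR with TMM, RLE scaling or limma-voom, 1 and 3 with library size alone, 1 and 4 without the low-count filter, 1 and 5 by DESeq2, and 1 and 6 without strain library 1 and static library 3; leaving out 1 library gave 0 to 0 and 0 to 4. Over all genes, 911 were higher and 1134 lower, against 1169 and 935 with library size alone, which shifts the median log2 fold change by 0.050, 1428 higher without the filter, and 1512 and 1614 without those 2 libraries; leaving out 1 library gave 369 to 1085 and 577 to 1244. Over the related lists, 2 were higher and 23 lower, against 6 higher without the filter, 4 higher by DESeq2, and 4 and 28 without those 2 libraries; leaving out 1 library gave 2 to 4 and 12 to 20. The cause of these shifts was not tested.

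With the replicate number as a block, 5 Hox genes were lower, 1557 of all genes higher and 4 list genes higher. Same-numbered libraries correlated by 0.059, 0.373 and 0.191 in their deviations. Strain library 1 correlated best with static library 3 (0.139), but strain libraries 2 and 3 correlated best with the static library of their own number. The labels give only a replicate number, so whether same-numbered libraries were paired or shared a batch cannot be told.

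Regions in the Hox clusters numbered 12, with 2 in all 4 libraries; an authors' -log10 q of at least 5 left 1 of these. Leaving out 1 library gave 6 (without GFP library 2) to 14, and 1 to 3 in every library used. Starts with a peak numbered 3, and 5 within 2000 bp; leaving out 1 library gave 2 to 3, and 0 to 1 in every library used. At the depth of these RNA-seq libraries 14 Hox genes had too few counts for the test, and whether depth was the reason was not tested. For the peaks, depth is unknown.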
